A study of Mus musculus with 8 samples.

Results

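The cell cycle and mitosis genes described here are 46 genes named in a list, of which 45 were present among the 13937 genes of the deposited count table and all 45 passed the filter on low counts that left 13509 genes for testing. The missing member, CDC25C, was present in the deposited FPKM table. Of the 45 counted members, 17 act at the G1/S boundary or in DNA replication (called the S phase members here), 26 act in G2 and mitosis (the mitosis members), and MYBL2 and WEE1 were put in neither class. The members were named from a list without a rule on their values, with earlier results of these data known, and they lie on 16 chromosomes of the mouse genome (GENCODE M21, GRCm38).

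The cells were primary astrocytes from the brains, freed of meninges, of C57BL/6 pups on postnatal day 1, either wild type (WT) or lacking RGC-32 (RGC-32 knockout, KO), left untreated (control) or treated with TGF-β (24 h at 10 ng/ml). Every culture had been grown for 2 weeks in medium with serum, shaken to remove loosely attached cells, and kept without serum overnight before stimulation. How many pups went into a culture is not given in the sources used here. Each of the 4 groups had 2 biological replicates, so 8 unstranded bulk RNA sequencing libraries with 14920561 to 18956038 counts each. The cultures were not sorted by cell cycle stage, and in such libraries fewer dividing cells and less RNA per dividing cell cannot be told apart.

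A cell commits to division when cyclin E with CDK2 drives E2F-dependent transcription of the replication genes, among them the MCM2-7 helicase, its loaders CDC6 and CDT1, the PCNA clamp and the enzymes that make deoxynucleotides. It enters mitosis when CDK1 binds cyclins A and B, after the inhibitory phosphates added by WEE1 are removed by the CDC25 phosphatases, and FOXM1 and MYBL2 drive the transcription of many mitotic genes. TGF-β is a well known inhibitor of proliferation in many epithelial and glial cells, and RGC-32, encoded by Rgcc, binds CDK1 and increases its kinase activity. Rgcc itself had 80 and 94 counts in untreated WT cells, 215 and 362 in treated WT cells, 61 and 28 in untreated KO cells, and 64 and 26 in treated KO cells, so each KO library was below each WT library and none was at 0.

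Promoters are shown for members whose transcripts carry the results below: CDK1 and CCNB2, which fell with TGF-β in at least 1 genotype, MCM5, which fell in KO, and TYMS and RRM1, which rose in both. RefSeq (GRCm38.p6) gave promoters for 36 of the 46 members, and the 250 bases before each start were searched on both strands for 3 motifs known from cell cycle promoters: CCAAT (bound by NF-Y), the cell cycle genes homology region TTTGAA, and an E2F site spelled TTTCCCGC, TTTGGCGC, TTTCGCGC or TTTGCCGC. The last 170 bases before the start are printed 5′ to 3′ on the gene's strand, with every match in capitals.
CDK1, chr10:69352913-69353082, minus strand: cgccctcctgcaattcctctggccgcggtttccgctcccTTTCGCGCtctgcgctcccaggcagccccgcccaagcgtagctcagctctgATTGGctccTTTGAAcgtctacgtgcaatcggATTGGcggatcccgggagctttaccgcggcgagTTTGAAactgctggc
CCNB2, chr9:70421555-70421724, minus strand: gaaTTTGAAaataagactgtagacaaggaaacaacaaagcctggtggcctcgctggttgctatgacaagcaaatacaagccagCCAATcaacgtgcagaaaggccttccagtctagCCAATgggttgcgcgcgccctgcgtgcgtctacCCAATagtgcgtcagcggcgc
MCM5, chr8:75109339-75109508, plus strand: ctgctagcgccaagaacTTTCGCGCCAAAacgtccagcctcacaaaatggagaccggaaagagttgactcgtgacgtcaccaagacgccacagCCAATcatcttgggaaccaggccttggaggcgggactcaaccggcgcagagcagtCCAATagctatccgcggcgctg
TYMS, chr5:30073626-30073795, minus strand: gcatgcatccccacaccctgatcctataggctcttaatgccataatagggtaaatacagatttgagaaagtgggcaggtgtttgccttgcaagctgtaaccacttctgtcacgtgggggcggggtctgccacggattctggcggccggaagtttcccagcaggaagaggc
RRM1, chr7:102441525-102441694, plus strand: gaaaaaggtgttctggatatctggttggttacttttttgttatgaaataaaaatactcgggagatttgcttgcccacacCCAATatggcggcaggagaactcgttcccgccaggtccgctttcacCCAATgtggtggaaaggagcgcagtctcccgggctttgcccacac

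The CDK1 stretch held 1 E2F match, 2 CCAAT matches on the opposite strand (printed ATTGG) and 2 TTTGAA matches, whereas the TYMS stretch held none of the 3 motifs. GENCODE M21 places the start of Cdk1 at chr10:69352938, inside the CDK1 stretch, so the last TTTGAA match there lies within the annotated gene. The CCNB2 stretch had 3 CCAAT matches and 1 TTTGAA match, the MCM5 stretch had 2 overlapping E2F matches and 2 CCAAT matches, and the RRM1 stretch had 2 CCAAT matches. Over all members with a promoter, CCAAT was present in 18 of 21 mitosis genes and 9 of 14 S phase genes, against 33.8% of all 32851 promoters in the RefSeq set. TTTGAA was present in 8 of 21 mitosis genes (CCNB2, CDC20, CDK1, ECT2, KIF11, MKI67, PRC1 and TOP2A) and in 1 of 14 S phase genes (MCM2), against 16.0% of all promoters. The E2F spellings were present in 5 of 14 S phase genes (CDC6, CDK2, MCM5, MCM6 and MCM7) and in 1 of 21 mitosis genes (CDK1), against 1.86% of all promoters. These matches describe letters in a window, and whether a factor bound there was not measured. No RefSeq promoter was found for CCNE2, GINS2, MCM4, CCNA2, CDC25C, AURKB, KIF20A, TPX2, FOXM1 and WEE1.

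All 45 counted members were expressed in these cultures, with the lowest count at 67 (CDC6 in 1 library) and the highest at 2881 (RRM1). On the FPKM scale, which is per transcript length, the mean over the 8 libraries was highest for PCNA at 79.1 ± 8.001 (SD, n = 8 over all groups), followed by RRM1 at 26.5 ± 2.26, MCM6 at 18.5 ± 0.90, RRM2 at 17.95 ± 2.83 and MCM7 at 15.7 ± 2.27. The SD over all groups includes changes with TGF-β. In the TGF-β libraries every MCM6 value was above every MCM7 value, whereas in the control libraries their values overlapped. The values of RRM2 overlapped with those of MCM6 and of MCM7 in both treatments. The lowest members were CDC25C at 0.85 ± 0.20, CDC6 at 0.94 ± 0.12 and TTK at 1.43 ± 0.23 FPKM. CDK1 stood in the middle of the order at 5.13 ± 0.83 FPKM, next to KIF20A at 5.09 ± 0.81. The rest of the text uses CPM, counts divided by the library's total after TMM scaling, which compare one gene between libraries and not genes with each other.

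The level of each class in a library was taken as the mean log2 CPM over its members. For the mitosis members it was 4.55 and 4.77 in untreated WT cells, 4.62 and 4.45 in treated WT cells, 4.51 and 4.65 in untreated KO cells, and 4.43 and 4.27 in treated KO cells. The WT groups overlapped, both KO TGF-β libraries were below both KO control libraries, and the lowest of the 8 values was that of KO TGF-β replicate 2. For the S phase members the mean was 4.93 and 5.03 in untreated WT cells, 4.93 and 4.81 in treated WT cells, 4.85 and 4.88 in untreated KO cells, and 4.82 and 4.77 in treated KO cells. Again the WT groups overlapped and the KO groups did not, by a narrow margin.

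**Figure D1:**
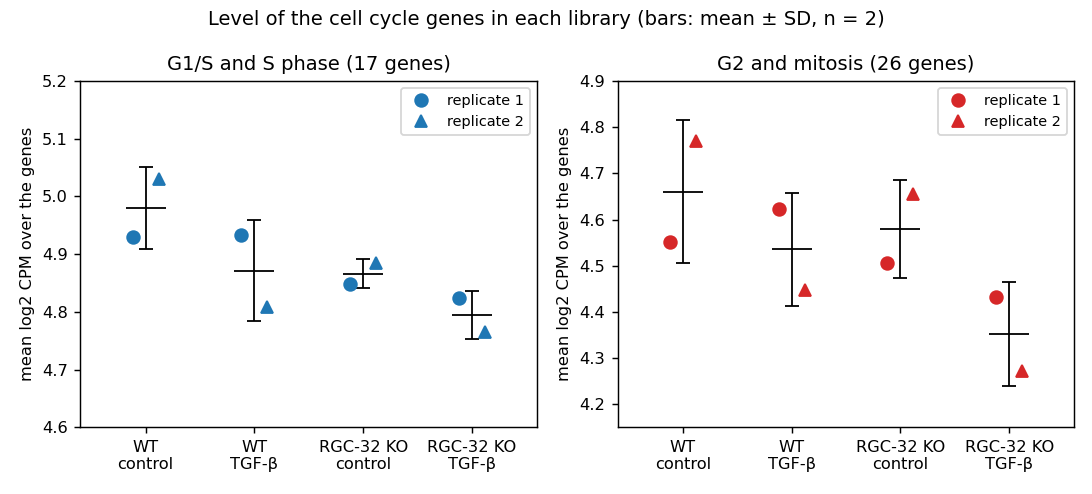
Mean log2 CPM over the 17 S phase members (left) and the 26 mitosis members (right) in each of the 8 libraries, by group; points are libraries (circle replicate 1, triangle replicate 2) and bars are the mean ± SD of 2 libraries. Replicate 2 is above replicate 1 in the control groups and below it in the TGF-β groups, and KO TGF-β has the lowest mean in both panels (4.79 and 4.35).

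From control to TGF-β the mean mitosis level dropped by 0.13 in WT and by 0.23 in KO on the log2 scale, and the mean S phase level dropped by 0.11 and 0.07. Replicates of one group were 0.22, 0.17, 0.15 and 0.16 apart in the mitosis level (in the order of the plot). The mitosis difference in WT was smaller than each of these gaps. That in KO was larger than the gaps of the KO groups (0.15 and 0.16) and barely larger than the widest gap (0.22, WT control). The mitosis minus S phase level was -0.32 ± 0.08 (SD, n = 2) in untreated WT cells, -0.34 ± 0.03 in treated WT cells, -0.29 ± 0.08 in untreated KO cells, and -0.44 ± 0.07 in treated KO cells. In WT the balance of the classes therefore moved by only -0.02 with TGF-β, and it moved by -0.16 in KO. The S phase mean includes TYMS, RRM1 and CCNE2, whose fold changes were positive, and the median fold changes of the classes in KO were close (-0.22 in both). These are class means over genes chosen by name, and no p-value is attached to them.

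The mitosis members, more than the S phase members, varied together between replicates. In WT control, 25 of the 26 mitosis members were higher in replicate 2, and in WT TGF-β all 26 were higher in replicate 1. In KO control, 22 of 26 were higher in replicate 2, and in KO TGF-β 24 of 26 were higher in replicate 1. Over all 13509 genes the share higher in replicate 1 was between 48.6% and 50.1% in each group. S phase members were split 3 and 14 (higher in replicate 1 and in replicate 2) in untreated WT cells, 13 and 4 in treated WT cells, 7 and 10 in untreated KO cells, and 13 and 4 in treated KO cells. Over the 8 libraries, which share groups and depth, the median Pearson r between 2 mitosis members was 0.75 (325 pairs). It was 0.27 between 2 S phase members (136 pairs) and 0.53 between members of different classes (442 pairs). These r values include differences between groups as well as between replicates. The quartiles were -0.42 and 0.77 for S phase pairs, and 0.63 and 0.84 for mitosis pairs. The mitosis members with the highest r with the mean of the others were CDC20 and TOP2A (both 0.95), and the members with the lowest were TYMS (-0.45), CCNE2 (-0.45), RRM1 (-0.22) and MCM6 (-0.12).

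**Figure D2:**
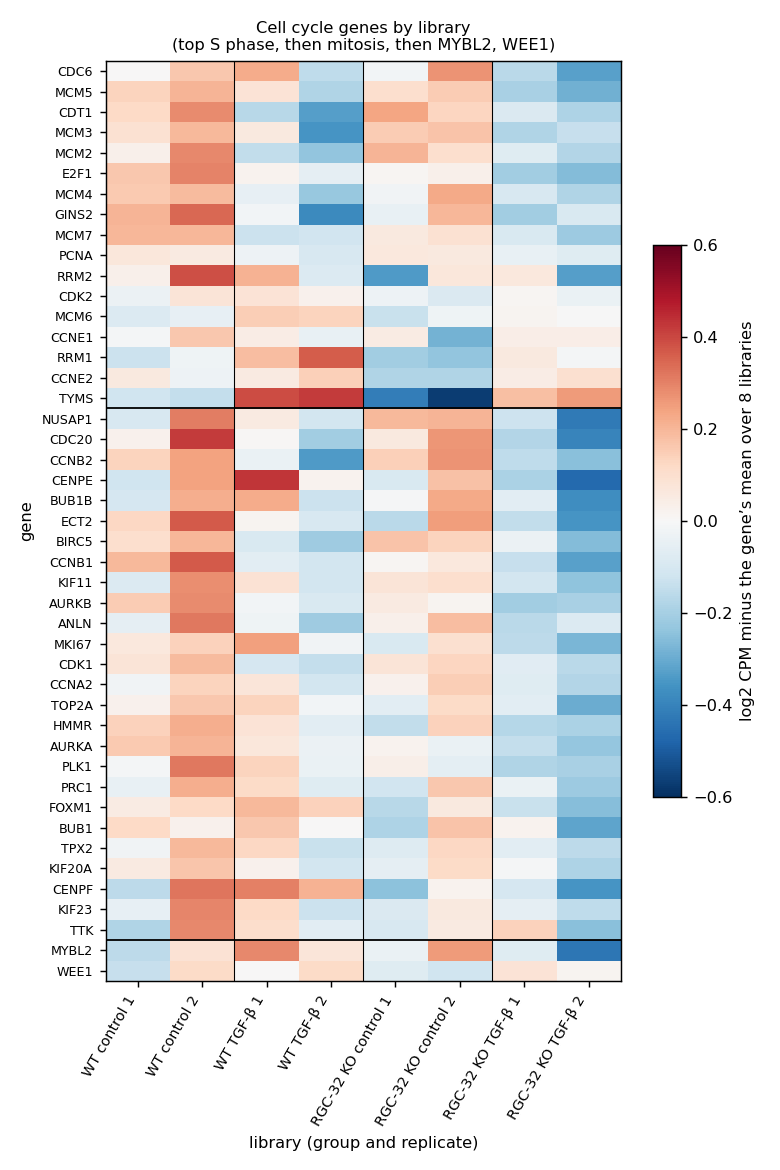
Log2 CPM of the 45 counted members in each library (columns, by group and replicate), each gene centred on its own mean over the 8 libraries; rows are S phase members, mitosis members, then MYBL2 and WEE1, each ordered by the response in KO. Red is higher and blue lower: the mitosis block is mostly red in control replicate 2 of both genotypes and blue in KO TGF-β replicate 2, and TYMS and RRM1 are higher with TGF-β than in control in both genotypes.

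The first comparison asked how the cell cycle genes of WT astrocytes responded to TGF-β. At an adjusted p under 0.05, 8 members fell (CCNB1, CDK1, CDT1, E2F1, GINS2, MCM2, MCM4 and MCM7) and 3 rose (TYMS, RRM1 and MCM6). Over all genes tested, 14.3% fell and 18.6% rose by the same rule, so 8 of 45 (17.8%) was near the background for falling and 3 of 45 (6.67%) was below it for rising. No member was past the study's fold threshold (absolute log2 fold change no smaller than 0.6, with an adjusted p under 0.05), against 5.65% of all genes downward and 7.72% upward. An unadjusted p under 0.05 was seen in 15 of 45 members, where 44.3% of all genes had one, and DESeq2 and limma-voom also put 0 members past the fold threshold. The median log2 fold change was -0.15 over the S phase members and -0.13 over the mitosis members, against -0.0048 over all genes. Each WT library moved these medians: the mitosis median was -0.0039 without control replicate 2, -0.04 without TGF-β replicate 2, -0.23 without control replicate 1 and -0.22 without TGF-β replicate 1, and the S phase median was -0.25 without control replicate 1 and -0.28 without TGF-β replicate 1. Of the 45 members, 33 had a negative fold change (23 without WT control replicate 2), against 50.6% of all genes. In 19 members (42.2%) both TGF-β libraries were below both control libraries, as in 33.7% of all genes. The falls numbered 1 without WT control replicate 2, 1 without WT TGF-β replicate 2 and 1 in DESeq2, whereas with upper quartile scaling 13 fell and 2 rose. With the second TGF-β library of WT left out there was 1 rise, and with the first left out GINS2 passed the fold threshold.

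In KO astrocytes the same comparison gave 4 members that fell (CCNB2, E2F1, MCM5 and MCM7) and 2 that rose (TYMS and RRM1), against 11.8% and 16.6% of all genes. TYMS was past the fold threshold, and it was the only member to pass it in any comparison, against 6.61% of all genes upward and 4.93% downward in this genotype. The median log2 fold change was -0.22 over both the S phase and the mitosis members, against 0.0031 over all genes. All 26 mitosis members had a negative fold change, from -0.47 (NUSAP1) to -0.03 (TTK), where 49.5% of all genes were negative. They varied together between replicates, so they are not 26 independent observations. With KO control replicate 2 left out, 23 of the 26 were negative and the S phase median was -0.12, and without KO TGF-β replicate 2 25 of the 26 were negative. In 28 of 45 members (62.2%), and in 17 of the 26 mitosis members, both TGF-β libraries were below both control libraries, as in 32.9% of all genes. The individual calls were fewer than in WT although the medians were lower, and the shares of all genes called were also smaller than in WT (14.3% and 18.6% there). The median standard error over the mitosis members was 0.13 in this comparison and 0.12 in WT. The falls numbered 0 without KO control replicate 2 or KO TGF-β replicate 2, 1 without KO TGF-β replicate 1, 2 without KO control replicate 1, 8 without WT control replicate 2 and 0 in DESeq2, and with upper quartile scaling 16 fell and 1 rose. The RRM1 rise was lost without any 1 of the 4 KO libraries or WT control replicate 2, which left TYMS alone.

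**Figure D3:**
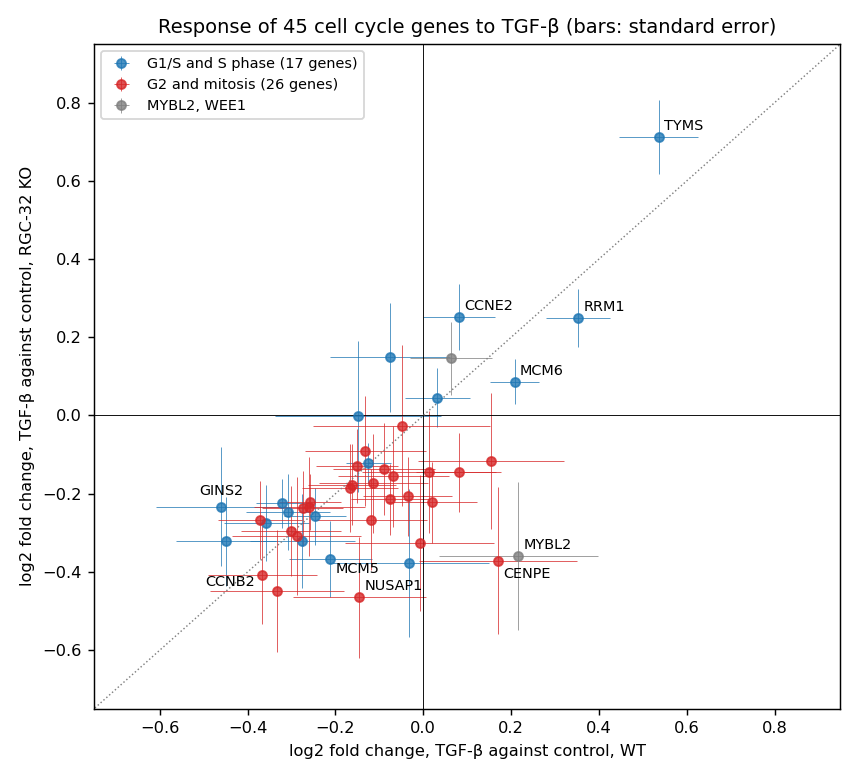
Log2 fold change of each of the 45 counted members with TGF-β in WT (horizontal axis) and in KO (vertical axis), with standard errors as bars; the dotted line marks equal change. Most members lie in the lower left, TYMS (0.54 and 0.71) and RRM1 (0.35 and 0.25) lie in the upper right, and CENPE and MYBL2 are above 0 in WT and below 0 in KO.

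CDK1, the kinase that starts mitosis and the known partner of RGC-32 (Cdk1, chr10:69335146-69352938, minus strand), was measured at 35.9 and 38.8 CPM in untreated WT cells, 31.7 and 30.8 in treated WT cells, 35.9 and 37.2 in untreated KO cells, and 32.4 and 30.3 in treated KO cells. All 4 TGF-β libraries were below all 4 control libraries, and the genotypes lay on top of each other. The log2 fold change with TGF-β was -0.26 (adjusted p = 0.026, SE 0.07) in WT and -0.22 (adjusted p = 0.051, SE 0.07) in KO. Without WT control replicate 2 the adjusted p in WT was 0.113, and over all the alternatives it was between 0.0063 and 1. Between genotypes CDK1 differed by -0.03 (95% confidence interval -0.19 to 0.13, adjusted p = 0.963) in control cells and by 0.01 (95% confidence interval -0.16 to 0.17, adjusted p = 0.988) with TGF-β.

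The cyclins that activate CDK1 followed it to different degrees. CCNB1, cyclin B1, was at 23.7 and 26.7 CPM in untreated WT cells, 19.8 and 19.1 in treated WT cells, 20.8 and 21.5 in untreated KO cells, and 18.8 and 16.4 in treated KO cells. It fell in WT by a log2 fold change of -0.37 (adjusted p = 0.022, SE 0.10) and had -0.27 (adjusted p = 0.081, SE 0.10) in KO, where both control libraries were below both WT control libraries. CCNB2, cyclin B2, was at 14.7 and 15.9 CPM in untreated WT cells, 13.05 and 10.6 in treated WT cells, 14.8 and 16.2 in untreated KO cells, and 12.1 and 11.3 in treated KO cells. Both genotypes had TGF-β libraries below their controls, and the log2 fold change was -0.41 (adjusted p = 0.044, SE 0.13) in KO, which passed, and -0.37 (adjusted p = 0.055, SE 0.12) in WT, which narrowly did not. CCNA2, cyclin A2, which acts in S phase and G2, was at 46.1 and 51.3 CPM in untreated WT cells, 49.1 and 43.3 in treated WT cells, 47.7 and 51.9 in untreated KO cells, and 44.4 and 41.4 in treated KO cells. Its WT groups overlapped and its KO groups did not, with log2 fold changes of -0.08 (adjusted p = 0.553, SE 0.09) and -0.21 (adjusted p = 0.114, SE 0.09), so no change was detected in either genotype.

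Of the regulators of CDK1, WEE1 and PLK1 were not called, and CDC25C was not tested. WEE1, the kinase that inhibits CDK1, was at 28.95 and 34.6 CPM in untreated WT cells, 31.95 and 34.5 in treated WT cells, 30.3 and 29.3 in untreated KO cells, and 33.7 and 32.2 in treated KO cells. Its fold changes were small and positive, 0.06 in WT and 0.15 in KO (adjusted p = 0.64 and 0.28), and the KO groups did not overlap. PLK1, a mitotic kinase that helps to activate CDK1, was at 17.02 and 21.4 CPM in untreated WT cells, 18.8 and 16.7 in treated WT cells, 17.5 and 16.5 in untreated KO cells, and 15.1 and 15.00 in treated KO cells. The WT groups overlapped and both KO TGF-β libraries were below their controls, with log2 fold changes of -0.11 and -0.17 (adjusted p = 0.512 and 0.34). CDC25C, a phosphatase that activates CDK1, was listed at 0.97 and 0.93 FPKM in untreated WT cells, 0.87 and 0.52 in treated WT cells, 1.03 and 1.04 in untreated KO cells, and 0.56 and 0.86 in treated KO cells, the lowest level of the 46 members. Each TGF-β value was below each control value, and CDC25C entered no test on counts. These FPKM values were used as deposited, and on log2(FPKM + 0.1) the median change of all genes with TGF-β was -0.11 in both genotypes. The share of all genes separated in this way on FPKM is not given here.

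The proliferation markers MKI67 and TOP2A were not called in either genotype. MKI67, which encodes Ki-67, a protein of dividing cells, was at 60.2 and 63.2 CPM in untreated WT cells, 68.2 and 56.7 in treated WT cells, 53.97 and 61.6 in untreated KO cells, and 51.5 and 47.6 in treated KO cells. In WT the TGF-β libraries lay on either side of the controls (log2 fold change 0.02, adjusted p = 0.901, SE 0.10), and in KO both were below them (-0.22, adjusted p = 0.147, SE 0.10). TOP2A, the topoisomerase that untangles chromosomes before mitosis, was at 94.7 and 104 CPM in untreated WT cells, 102 and 92.01 in treated WT cells, 89.1 and 101 in untreated KO cells, and 88.9 and 75.6 in treated KO cells. It overlapped between WT groups and, narrowly, did not between KO groups, with log2 fold changes of -0.04 and -0.21 (adjusted p = 0.81 and 0.165).

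Among the spindle genes, NUSAP1, a microtubule-binding protein of the spindle, had the largest negative fold change of any member in KO. It was at 16.6 and 22.02 CPM in untreated WT cells, 18.5 and 16.5 in treated WT cells, 20.4 and 20.5 in untreated KO cells, and 16.3 and 13.3 in treated KO cells. Both KO TGF-β libraries were below their controls and the change narrowly missed the threshold at -0.47 (adjusted p = 0.057, SE 0.15), whereas the WT groups overlapped (-0.15, adjusted p = 0.495, SE 0.15). CENPE, a kinetochore motor that brings chromosomes to the spindle equator, was at 18.4 and 23.6 CPM in untreated WT cells, 26.98 and 20.3 in treated WT cells, 18.8 and 22.6 in untreated KO cells, and 17.6 and 14.5 in treated KO cells. Its fold change was positive in WT (0.17, adjusted p = 0.5, SE 0.18) and negative in KO (-0.37, adjusted p = 0.176, SE 0.19), and neither passed. Of the 26 mitosis members, CDK1, CCNB1 and CCNB2 were the only ones called in either genotype, and the other 23 had log2 fold changes between -0.33 and 0.17 in WT, and between -0.47 and -0.03 in KO. The share of the 26 that fell was 7.69% in WT and 3.85% in KO, against 14.3% and 11.8% of all genes.

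Of the transcription factors, FOXM1 and MYBL2 were not called and E2F1 was. FOXM1 was at 21.7 and 22.8 CPM in untreated WT cells, 23.99 and 23.1 in treated WT cells, 18.7 and 21.9 in untreated KO cells, and 19.2 and 17.6 in treated KO cells. Both WT TGF-β libraries were slightly above their controls (0.08, adjusted p = 0.559, SE 0.10), and the KO groups overlapped (-0.15, adjusted p = 0.313, SE 0.10). MYBL2, also called B-Myb, was at 5.997 and 7.10 CPM in untreated WT cells, 8.18 and 7.03 in treated WT cells, 6.51 and 7.99 in untreated KO cells, and 6.37 and 4.95 in treated KO cells. The WT groups overlapped and both KO TGF-β libraries were below their controls, with log2 fold changes of 0.22 and -0.36 (adjusted p = 0.395 and 0.189). E2F1, the activator of replication genes, was at 36.3 and 39.9 CPM in untreated WT cells, 32.9 and 31.3 in treated WT cells, 32.8 and 33.2 in untreated KO cells, and 28.1 and 27.2 in treated KO cells. It fell in both genotypes, by a log2 fold change of -0.25 (adjusted p = 0.032, SE 0.07) in WT and -0.26 (adjusted p = 0.033, SE 0.07) in KO, without overlap of control and TGF-β libraries in either.

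Of the 17 S phase members, 7 were called in neither genotype (CCNE1, CCNE2, CDK2, CDC6, MCM3, PCNA and RRM2). In WT 35.3% of the 17 fell and 17.6% rose, against 14.3% and 18.6% of all genes. In KO 17.6% fell and 11.8% rose, against 11.8% and 16.6% of all genes. TYMS, thymidylate synthase, which makes dTMP for DNA synthesis (Tyms, chr5:30058202-30073617, minus strand), was at 14.3 and 14.03 CPM in untreated WT cells, 20.3 and 20.7 in treated WT cells, 11.6 and 10.4 in untreated KO cells, and 17.6 and 18.5 in treated KO cells. All 4 TGF-β libraries were above all 4 control libraries, and TYMS rose in WT by a log2 fold change of 0.54 (adjusted p = 0.0039, SE 0.09) and in KO by 0.71 (adjusted p = 0.0017, SE 0.09). The rise in each genotype passed an adjusted p of 0.05 in every alternative run but Bonferroni's correction, leaving out each library included. RRM1, the large subunit of ribonucleotide reductase, which makes deoxynucleotides, was at 128 and 138 CPM in untreated WT cells, 159 and 180 in treated WT cells, 121 and 119 in untreated KO cells, and 146 and 139 in treated KO cells. It rose in both genotypes, with 0.35 (adjusted p = 0.0088, SE 0.07) and 0.25 (adjusted p = 0.039, SE 0.07), and the call in KO was lost in 12 of 20 alternatives. RRM2, the small subunit of the same enzyme, had fold changes of -0.15 and -0.002 and no call (RRM2 was added after its values were seen).

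The helicase and its loading factors had mostly negative fold changes. MCM2, a subunit of the MCM2-7 helicase, was at 34.7 and 41.4 CPM in untreated WT cells, 30.6 and 28.8 in treated WT cells, 39.1 and 36.4 in untreated KO cells, and 32.3 and 30.1 in treated KO cells. It fell in WT (-0.36, adjusted p = 0.025, SE 0.10) and had -0.28 (adjusted p = 0.069, SE 0.10) in KO, with the TGF-β libraries below the controls in both. MCM7 was at 60.7 and 60.8 CPM in untreated WT cells, 48.4 and 48.9 in treated WT cells, 55.00 and 56.3 in untreated KO cells, and 49.7 and 45.5 in treated KO cells. It fell in both genotypes, with log2 fold changes -0.32 (adjusted p = 0.0063, SE 0.06) and -0.22 (adjusted p = 0.03, SE 0.06). MCM5 was at 30.4 and 31.9 CPM in untreated WT cells, 29.3 and 24.4 in treated WT cells, 29.7 and 30.8 in untreated KO cells, and 24.2 and 22.7 in treated KO cells. It fell in KO (-0.37, adjusted p = 0.026, SE 0.10) and had -0.21 (adjusted p = 0.125, SE 0.10) in WT, again with no overlap of groups.

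The remaining subunits, named after their values were seen to complete the complex, did not all follow. MCM4 fell in WT (-0.31, adjusted p = 0.041, SE 0.10) and had -0.25 (adjusted p = 0.093, SE 0.10) in KO, and MCM3 had -0.28 and -0.32 with no call. MCM6 rose in WT with 0.21 (adjusted p = 0.025, SE 0.06), the opposite direction to MCM2, MCM4 and MCM7, although the proteins act in 1 ring, and it was not called in KO (0.09, adjusted p = 0.285, SE 0.06). The MCM6 call in WT was lost in 12 of 20 alternatives.

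Of the genes that load and accompany the helicase, CDT1 was at 13.6 and 15.3 CPM in untreated WT cells, 11.2 and 9.97 in treated WT cells, 14.8 and 13.7 in untreated KO cells, and 11.8 and 11.03 in treated KO cells. It fell in WT (-0.45, adjusted p = 0.02, SE 0.11) and had -0.32 (adjusted p = 0.07, SE 0.11) in KO, with all 4 TGF-β libraries below all 4 controls. GINS2, a subunit of the GINS complex that joins the helicase, was at 13.5 and 14.9 CPM in untreated WT cells, 11.6 and 9.02 in treated WT cells, 11.4 and 13.5 in untreated KO cells, and 10.2 and 11.03 in treated KO cells. Its log2 fold change of -0.46 (adjusted p = 0.047, SE 0.15) was the largest fall of any member in WT, while in KO it was -0.23 (adjusted p = 0.284, SE 0.15). In the annotation 67.3% of the exonic bases of Gins2 overlap Gse1 on the opposite strand, so in unstranded libraries reads of these genes cannot be told apart. CCNA2, CCNE2, KIF20A, MCM7 and PRC1 also share over 10% of their exonic bases with another gene.

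PCNA, the clamp that holds DNA polymerase, had the smallest standard error of the members in both TGF-β comparisons. It was at 102 and 101 CPM in untreated WT cells, 95.1 and 90.8 in treated WT cells, 101 and 101 in untreated KO cells, and 94.01 and 92.3 in treated KO cells. All TGF-β libraries were below all controls, but the change was small and did not pass (-0.13 in WT, adjusted p = 0.095, SE 0.05, and -0.12 in KO, adjusted p = 0.115, SE 0.05). CCNE1, cyclin E1, was at 10.2 and 11.5 CPM in untreated WT cells, 10.6 and 9.97 in treated WT cells, 10.7 and 8.46 in untreated KO cells, and 10.6 and 10.6 in treated KO cells. It overlapped between groups in both genotypes, and its log2 fold changes were -0.08 and 0.15 (adjusted p = 0.7 and 0.462). CCNE2, cyclin E2, was at 19.1 and 17.96 CPM in untreated WT cells, 19.02 and 20.2 in treated WT cells, 16.1 and 16.2 in untreated KO cells, and 18.9 and 19.6 in treated KO cells. The KO libraries did not overlap and the log2 fold change there narrowly missed the threshold at 0.25 (adjusted p = 0.058, SE 0.08), against 0.08 (adjusted p = 0.48, SE 0.08) in WT.

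The genotypes were then compared without TGF-β. No member differed by edgeR at an adjusted p under 0.05, where 0.037% of all genes did, and 4 members had an unadjusted p under 0.05 (TYMS, E2F1, CCNB1 and CCNE2), 8.89% against 6.84% of all genes. DESeq2 and limma-voom also called 0 members. TYMS had lower values in KO, with a log2 difference of -0.36 (95% confidence interval -0.58 to -0.14, adjusted p = 0.505), which leaves the difference undecided after the correction. E2F1 differed by -0.21 (95% confidence interval -0.37 to -0.04, adjusted p = 0.665) and MYBL2, the member with the most positive value, by 0.15 (95% confidence interval -0.28 to 0.57, adjusted p = 0.927). The median difference was -0.08 over the S phase members and -0.07 over the mitosis members against -0.0071 over all genes. Negative values were seen in 37 of 45 members, against 52.4% of all genes. In 9 of 45 members both KO libraries were below both WT libraries, near the 17.4% of all genes. Without WT control replicate 2 the mitosis median was 0.04, so its sign rested on that library, and it was -0.0021 without KO control replicate 1, -0.17 without KO control replicate 2 and -0.19 without WT control replicate 1. The S phase median was -0.05 without WT control replicate 2 and -0.13 without WT control replicate 1.

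With TGF-β in both genotypes most mitosis members lay lower in KO, without a call for any gene. Their median log2 difference was -0.18, and 24 of 26 were negative, against 49.9% of all genes. In 13 of 26 both KO libraries were below both WT libraries, compared with 22.4% of all genes. These members varied together between replicates, so they are not 26 independent observations. Their mean level with TGF-β was 4.62 and 4.45 in WT, and 4.43 and 4.27 in KO. The group means differed by -0.18, while replicates were 0.17 (WT) and 0.16 (KO) apart. The median difference was -0.10 with 21 of 26 negative without KO TGF-β replicate 2, and -0.11 with 18 of 26 negative without WT TGF-β replicate 1. The S phase members had a median of -0.03 and 7 of 17 without overlap downward, and their median was -0.12 without WT TGF-β replicate 2, -0.08 without KO TGF-β replicate 1, and -0.05 without either of the other TGF-β libraries. No member passed an adjusted p of 0.05 in edgeR, DESeq2 or limma-voom, where 0.0518% of all genes did in edgeR, and 8 members had an unadjusted p under 0.05 (FOXM1, RRM1, MKI67, CENPE, E2F1, CENPF, MCM6 and TOP2A), all with lower values in KO, 17.8% against 11.7% of all genes. FOXM1 differed by -0.36 (95% confidence interval -0.59 to -0.13, adjusted p = 0.242), RRM1 by -0.25 (95% confidence interval -0.42 to -0.08, adjusted p = 0.252), and MKI67 by -0.34 (95% confidence interval -0.58 to -0.10, adjusted p = 0.289). CENPE had the most negative difference at -0.57 (95% confidence interval -0.996 to -0.14, adjusted p = 0.311), and CDT1 the most positive at 0.11 (95% confidence interval -0.16 to 0.38, adjusted p = 0.764). For FOXM1, MKI67 and CENPE the 2 KO values were below the 2 WT values in the libraries printed above.

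**Figure D4:**
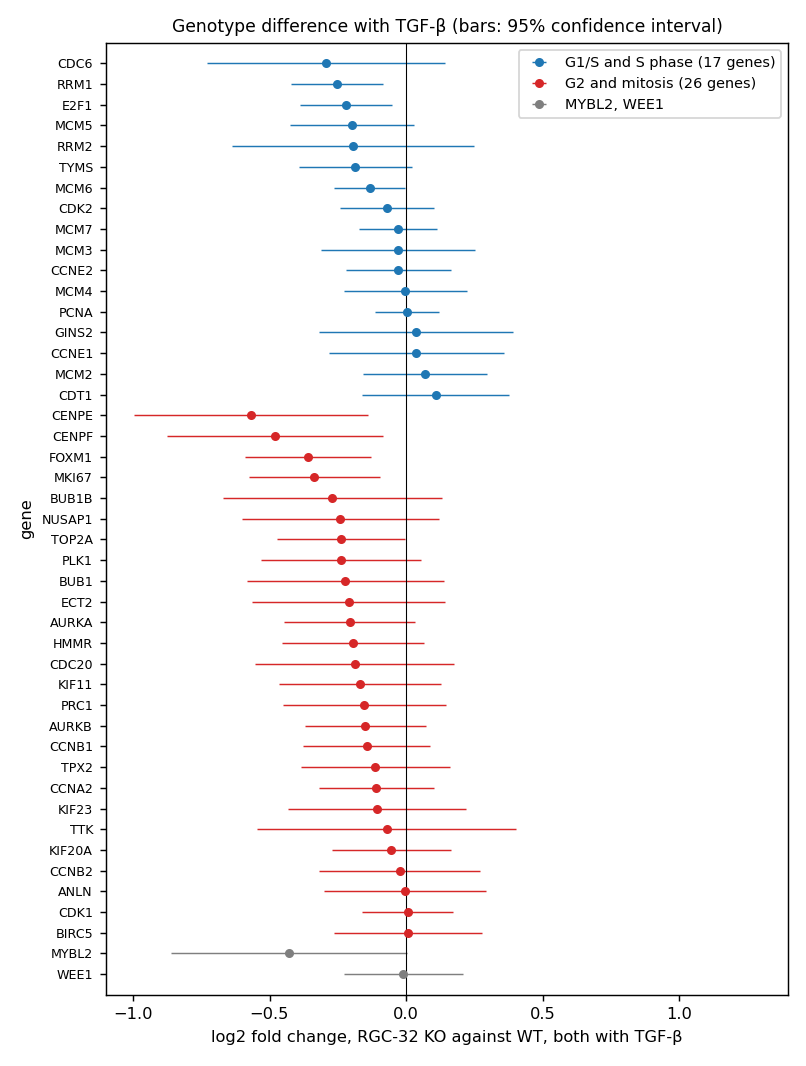
Log2 fold change of KO against WT astrocytes, both with TGF-β, for each of the 45 counted members (rows, S phase members in blue, mitosis members in red, MYBL2 and WEE1 in grey), with 95% confidence intervals as bars. Most mitosis members lie left of 0, CENPE (-0.57) furthest, while CDK1 lies at 0.01 with an interval of -0.16 to 0.17.

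The test of whether the response to TGF-β depended on RGC-32 found no member. None passed in edgeR, where 0% of all genes did, and DESeq2 and limma-voom called 0 members. An unadjusted p under 0.05 was seen in 0 of 45 members, against 2.82% of all genes. The median standard error over the members was 0.16. The interaction, the KO response minus the WT response, was most negative for MYBL2 at -0.58 (95% confidence interval -1.18 to 0.03, adjusted p = 1) and CENPE at -0.54 (95% confidence interval -1.14 to 0.06, adjusted p = 1), and most positive for GINS2 at 0.23 (95% confidence interval -0.27 to 0.72, adjusted p = 1). For CDK1 it was 0.04 (95% confidence interval -0.19 to 0.27, adjusted p = 1). Its median was 0.06 over the S phase members and -0.05 over the mitosis members. The S phase value was -0.044 without WT control replicate 2, -0.0072 without WT TGF-β replicate 2 and -0.0041 without KO TGF-β replicate 1, and the mitosis value was 0.027 without WT control replicate 1, 0.017 without WT TGF-β replicate 1 and 0.0051 without KO control replicate 2, so both signs rested on single libraries. Whether the mitosis members as a class responded differently in the genotypes was not tested.

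Other genes of the pathway, from lists of genes that are not members, had medians close to those of the members. In the replication list, 27 genes were tested and their median log2 fold changes were -0.14 (WT) and -0.24 (KO), with 4 that fell and 1 that rose in WT and 2 and 1 in KO. The one that rose in both was DUT, the enzyme that makes dUMP, the substrate of thymidylate synthase, at 0.596 in WT and 0.50 in KO (adjusted p = 0.021 and 0.048). In the list of further mitosis genes, 39 tested, the medians were -0.13 and -0.22, with 6 that fell and 2 that rose in WT and 8 and 1 in KO. Of all genes tested, 14.3% fell and 18.6% rose in WT, and 11.8% and 16.6% in KO. CDC25A, a phosphatase of the CDC25 family named after its values were seen, rose in both genotypes, with 0.44 (adjusted p = 0.023, SE 0.12) and 0.46 (adjusted p = 0.025, SE 0.12). None of these genes was past the fold threshold in any comparison.

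In the list of G1 control genes 26 were tested, of which 6 fell and 6 rose in WT, and 5 fell and 6 rose in KO, so 23.1% rose in each genotype against the shares of all genes just given. CCND1, cyclin D1, which starts G1 progression, was at 1257 and 1080 CPM in untreated WT cells, 644 and 691 in treated WT cells, 1093 and 1065 in untreated KO cells, and 625 and 667 in treated KO cells. It fell past the fold threshold in both genotypes, with -0.81 (adjusted p = 0.0007, SE 0.09) and -0.74 (adjusted p = 0.0012, SE 0.09). CDKN1C, the CDK inhibitor p57, was at 28.6 and 29.01 CPM in untreated WT cells, 14.2 and 14.6 in treated WT cells, 30.9 and 30.01 in untreated KO cells, and 14.7 and 14.8 in treated KO cells. It also fell in both, with -1.002 (adjusted p = 0.00016, SE 0.07) and -1.04 (adjusted p = 0.00018, SE 0.07). Another CDK inhibitor, CDKN1A (p21), named after its values were seen, rose in both, with 0.45 (adjusted p = 0.021, SE 0.12) and 0.51 (adjusted p = 0.015, SE 0.12). GADD45B, a stress and TGF-β responsive gene, rose by 0.82 (adjusted p = 0.001, SE 0.10) and 0.67 (adjusted p = 0.0027, SE 0.10). CDKN2A, which encodes the inhibitor p16 and the p53 activator p19Arf, rose by 0.90 (adjusted p = 0.041, SE 0.28) and 0.95 (adjusted p = 0.04, SE 0.28). No gene of the 3 lists was called between the genotypes.

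The genes outside all of these lists whose level was most like that of CDK1 over the 8 libraries were IQCA, STEAP3, CCBE1, GULP1 and OLFML2A, with Pearson r from 0.991 to 0.995 among 13202 genes compared. CDK1 was lower in all TGF-β libraries than in all control libraries, so genes chosen for a high r with it tend to share that separation. The share of all genes separated in this way is not given here. Each of the named genes was. STEAP3, for example, was at 49.0 and 57.7 CPM in untreated WT cells, 34.2 and 30.3 in treated WT cells, 44.98 and 50.9 in untreated KO cells, and 35.2 and 30.7 in treated KO cells, a larger relative change than that of CDK1.

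Markers of cell types moved with TGF-β in the same libraries. The summed level of 9 of 10 listed meningeal fibroblast genes was 6837 to 8224 CPM in untreated WT cells, 12537 to 14968 in treated WT cells, 5410 to 5958 in untreated KO cells, and 10144 to 10354 in treated KO cells, so it was also lower in KO than in WT. Of these 9 genes 4 were called higher and 2 lower with TGF-β in WT, and 4 higher and 1 lower in KO. Between the genotypes 0 of the 9 were called, with lower values in KO for 9 without TGF-β and 8 with it. The astrocyte markers (10 of 10) summed to 4396 to 4632, 3440 to 3565, 5071 to 5781 and 4263 to 4555 CPM in the same order. Markers of ependymal cells (7 of 8) summed to 389 to 452, 246 to 277, 413 to 464 and 295 to 307 CPM, and those of endothelial cells (5 of 8) to 97.7 to 124, 61.8 to 67.4, 99.8 to 123 and 60.4 to 73.3 CPM. Markers of microglia or macrophages (12 of 12) summed to 1302 to 1605, 1103 to 1477, 1394 to 1536 and 1138 to 1296 CPM in that order. The WT groups overlapped and the KO groups did not. In 9 of the 12 genes both KO TGF-β libraries were below both KO controls, against 32.9% of all genes. In WT this held for 2 of the 12, against 33.7% of all genes. Those of the oligodendrocyte lineage (8 of 9) ran from 379 to 400 CPM in control and 466 to 625 with TGF-β, and those of neurons (7 of 10) from 302 to 369 and 395 to 426. These sums also join genes that moved in opposite directions, since 2 of the 8 oligodendrocyte lineage genes were called lower and 1 higher in WT, and 2 lower and 2 higher in KO, and 1 of the 7 neuron genes was called lower and 2 higher in WT, and 0 and 2 in KO. No listed marker in the table was at 0 in all libraries, and the part of other cells in the cell cycle values was not tested.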

How the data were processed

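RNA from primary astrocytes of 4 groups (WT or RGC-32 knockout, KO, each with and without TGF-β) with 2 biological replicates each was sequenced in unstranded libraries. The authors used the VIPER pipeline with the STAR aligner (mm10 per the labels' processing notes) and deposited raw whole-number counts for each gene symbol. The counting program and annotation are not given in the sources used here. The authors also deposited FPKM values from Cufflinks, used here for CDC25C, for the order of levels and as an alternative. Deposited DESeq tables of fold changes and p-values between treatments were not used. Of the listed names, 21 read as dates and 1 occurred more than once.

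Samples were grouped by their labels. Counts were analysed with edgeR 4.0.16 in R 4.3.3: filterByExpr (13509 genes), TMM scaling and a quasi-likelihood model with 4 group means over all 8 libraries (two-sided p-values, Benjamini-Hochberg adjustment over all genes tested), checked on simulated counts. Log2 CPM used a prior count of 2. Libraries held 14920561 to 18956038 counts, and the spread between replicates exceeded counting noise. The study describes the replicates as biological, but the labels do not say whether they came from separate litters. The p-values therefore measure the spread between these libraries. "Past the threshold" means a log2 fold change of 0.6 or more in either direction with an adjusted p under 0.05.

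The members and gene lists were chosen with earlier results of these data known. Values in every library are given for CDK1 and its regulators, a set of proliferation and G1/S genes, members past the threshold, and per comparison the 2 members with the smallest p and the largest change each way. Alternatives were DESeq2 1.42.0, limma-voom (limma 3.58.1), RLE and upper quartile scaling, no filter, a filter of 10 counts in every library, a replicate block, Bonferroni's correction, no fold threshold, log2(FPKM + 1) and log2(FPKM + 0.1) with limma, a prior count of 0.5, and leaving out each library. A block with the numbers crossed was added after the data were seen. Replicate numbers did not pair the samples by their labels. Promoters came from RefSeq (GRCm38.p6) and gene positions from GENCODE M21.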

Additional observations from a re-analysis of the deposited data

How the results depend on the processing

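The 13 members called with TGF-β in either genotype kept their direction more often than their call. Of their 520 values in both genotypes under 20 alternatives, 2 changed sign, both MCM6 in KO, which was not called there (log2 fold change -0.015 on log2(FPKM + 0.1) and -0.015 on log2(FPKM + 1)). A call was lost in 99 values and gained in 39. Only the 11 calls reported in WT and the 6 in KO could be lost, and only the other results could gain one. The 99 and the 39 are therefore not shares of all 520. DESeq2 gave 1 member that fell in WT, 0 that fell and 1 that rose in KO. RLE scaling left 1 rise in KO. Bonferroni's correction left 0 falls and 0 rises in each genotype, so 0 members past the threshold. Over all 45 members, those with a negative fold change numbered 33 in WT as reported, and from 23 (without WT control replicate 2) to 40 (FPKM) under the alternatives. Without the fold threshold 11 members were called in WT and 6 in KO. The share of all genes called under each alternative is not given here, so counts of members called under them cannot be set against a background.

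Upper quartile scaling moved the median of all genes to -0.09 in WT and -0.08 in KO and gave 13 falls in WT, 16 falls and 1 rise in KO, and S phase medians of -0.24 and -0.31. On log2(FPKM + 0.1), where the median of all genes was -0.11 in both genotypes, 15 members fell in WT, 22 fell and 1 rose in KO, the S phase medians were -0.27 and -0.32, the mitosis medians -0.25 and -0.37, and the S phase interaction -0.0020. On log2(FPKM + 1), 15 fell in WT, 22 fell, 1 rose and 0 were past the threshold in KO, the S phase median in WT was -0.26 and the S phase interaction -0.0037. Relative to the median of all genes, the mitosis median stayed between -0.16 and -0.11 in WT and between -0.26 and -0.22 in KO under all scalings and tools run on the 8 libraries, but with 1 library left out its limits were -0.23 and 0.0067 in WT, and -0.29 and -0.16 in KO.

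Leaving out 1 library at a time gave 1 to 8 falls, 1 to 3 rises and 0 to 1 members past the threshold in WT, and 0 to 8 falls and 1 to 2 rises in KO. The S phase median ran from -0.28 to -0.10 in WT, from -0.24 to -0.12 in KO, from -0.12 to -0.031 between the genotypes with TGF-β and from -0.044 to 0.11 in the interaction, where the mitosis median ran from -0.20 to 0.027. The mitosis median ran from -0.23 to -0.0039 in WT, from -0.30 to -0.15 in KO, from -0.19 to 0.04 between the genotypes without TGF-β and from -0.25 to -0.10 with it. With 2 libraries a group, the lone library left was assumed to vary like the other groups.

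The replicate numbers were shared by the groups but nothing in the labels says that they pair cultures. With the replicate block 4 members fell in WT, 1 fell and 1 rose in KO, and 0 were called between the genotypes. Same-numbered libraries deviated in opposite directions between control and TGF-β (correlation -0.23 in WT and -0.33 in KO) and together between the genotypes within a treatment (0.50 in control and 0.41 with TGF-β). With the crossed replicate block, chosen after seeing the data, 13 members fell in WT, 18 fell in KO, and 1 was lower in KO with TGF-β. The share of all genes called with this block is not given here. With 2 libraries a group, median standard errors per member of 0.11 to 0.12 on the log2 scale, and 0.16 in the interaction, limit what these comparisons can show. The cause of the changes between alternatives was not tested.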
